A study of Homo sapiens with 8 samples.

Results

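The heat shock response genes described here are HSF1, the transcription factor that switches on the response, and the chaperone and co-chaperone genes HSPA1A, HSPA1B, HSPA1L, HSPA6, HSPA8, HSPH1, DNAJB1, HSPB1 and BAG3. They are 10 of the 38637 genes in the table, found by symbol, and all 10 had a row. They were selected on their levels in these libraries, with each EBF2-OE library set against the Vector library of its number, so the values of that comparison are given as a description without a test. RNA-seq had been run on SW1990, an established human pancreatic adenocarcinoma cell line, to profile transcription after EBF2 overexpression or after inhibition of the histone demethylase KDM1A. There were 8 libraries: Vector 2 and 3 from cells with the empty vector, EBF2-OE 2 and 3 from cells overexpressing EBF2, Vehicle 1 and 2 from vehicle-treated cells, and GSK-LSD1 1 and 2 from cells given the KDM1A inhibitor GSK-LSD1, at 2000 µM by the labels. The labels give the same line for all groups, while the study's legend for its RNA-seq heat map names SW1990-luc, the same line labelled with luciferase. The promoter of the EBF2 plasmid and the treatment times were not given in the sources used here, nor was whether libraries of a group came from separate cultures, so p-values measure only the spread between these libraries.

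In unstressed cells HSF1 is held inactive by chaperones. When unfolded proteins engage those chaperones, HSF1 forms trimers, binds heat shock elements in promoters and drives transcription of chaperone genes. HSP70 proteins (the HSPA genes) bind exposed stretches of client proteins in an ATP cycle. J proteins such as DNAJB1 deliver clients and start the cycle, while nucleotide exchange factors such as HSPH1 and BAG3 reset it. HSPA8 is the constitutive HSP70 of the cytosol, HSPA1A and HSPA1B are inducible, and HSPA6 is nearly silent without stress. Cancer cells commonly keep a raised basal level of several of these chaperones.

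The promoters of the 4 genes whose levels set a single library apart (HSPA6, HSPA1A, HSPA1B and DNAJB1) are shown first. Each line gives the 120 bases before the start annotated by RefSeq on GRCh38.p14, read 5′ to 3′ on the strand of the gene, with heat shock elements in capitals. HSPA6 lies at chr1:161524420-161524539 (+), HSPA1A at chr6:31815423-31815542 (+), HSPA1B at chr6:31827618-31827737 (+) and DNAJB1 (start 2 of 3) at chr19:14518398-14518517 (-). Of the 3 DNAJB1 starts, only start 2 has elements within its 120 bases, and which start these cells use was not tested.
HSPA6: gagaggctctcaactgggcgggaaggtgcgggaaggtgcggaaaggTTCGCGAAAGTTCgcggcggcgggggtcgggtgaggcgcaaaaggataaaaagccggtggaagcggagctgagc
HSPA1A: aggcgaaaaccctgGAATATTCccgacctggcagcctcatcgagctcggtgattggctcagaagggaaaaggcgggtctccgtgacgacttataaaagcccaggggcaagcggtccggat
HSPA1B: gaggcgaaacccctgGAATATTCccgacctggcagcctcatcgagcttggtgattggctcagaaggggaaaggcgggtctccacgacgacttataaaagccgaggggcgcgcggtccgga
DNAJB1: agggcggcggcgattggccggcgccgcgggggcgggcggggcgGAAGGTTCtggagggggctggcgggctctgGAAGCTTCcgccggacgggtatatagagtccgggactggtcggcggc

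The full element was searched as GAANNTTCNNGAA or TTCNNGAANNTTC, which are 3 alternating units, and a shorter form as GAANNTTC or TTCNNGAA, which are 2 units and lie within the full element. Both forms cover both strands, and the window ran from 250 bases before to 50 after the start. The full element was found in 0.49% of the 35116 promoters of the table and the shorter form in 13.5%. Of the members, 9 have promoters in the table, 2 of them with the full element and 7 with at least the shorter form. HSPA6 holds the full element 74 bases before its start, with a further 2 units at position -180. HSPA8, the constitutive gene, holds it at both -230 and -55, the nearer one with the letters TTCTGGAAGGTTC (chr11:123062179-123062191). HSPA1A and HSPA1B carry the same 8 bases, GAATATTC, at -106 and -105, and 111 bases of their 120-base windows are identical in an alignment. HSPA1L starts 260 bases from HSPA1A on the opposite strand, and the element at its position -161 is the same genomic site as that of HSPA1A. DNAJB1 has 2 short elements at start 2, at -77 and -47, and 1 at start 3, at bases 2 to 9 after it. It had 3 starts searched and the other members 1 each, while the percentages above count single promoters. HSPB1 has 1 short element at -182, and BAG3 and HSPH1 have neither form in this window. A match describes letters only. It does not show that HSF1 was bound.

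The libraries held 20453362 to 27054876 counts on genes. EBF2, the overexpressed gene, had 24 to 40 counts in the 6 libraries without the transgene, 5818 in EBF2-OE 2 and 90100 in EBF2-OE 3. The 2 EBF2-OE libraries therefore differ widely in the transgene itself. Libraries of a group also lay further apart in the plasmid experiment than in the inhibitor experiment (chi-square per degree of freedom over genes of 25.6 and 32.9 for Vector and EBF2-OE, but 6.23 and 5.34 for Vehicle and GSK-LSD1). The 7 ductal epithelial markers summed to 4622 to 7231 TPM per library, with 4 of 7 at 1 TPM or more in every library. Sums per library were 41.1 to 57.0 TPM for fibroblast, 1.96 to 7.36 for blood and 0.503 to 5.02 for endothelial markers, whose parts in the results were not tested. Acinar and islet markers stayed under 1 TPM in every library, and PRSS1, INS, GCG and CD3E were at 0. Levels below are CPM, counts scaled to a common effective library size, unless TPM, which also corrects for gene length, is named. In bulk RNA, fewer cells with a transcript and less of it per cell cannot be told apart.

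HSF1 (chromosome 8, 144291603 to 144314720, hg38, + strand) was expressed at similar levels throughout. Vector held 2205 and 2163 counts, EBF2-OE 1754 and 2498, Vehicle 2817 and 2787 and GSK-LSD1 2079 and 2281. On the CPM scale these are 104 and 92.6, 87.1 and 112, 113 and 101, and 90.2 and 100.2. The groups overlapped except that both GSK-LSD1 libraries lay below both Vehicle libraries. DGAT1 overlaps the end of HSF1 by 137 bases on the opposite strand, and with no strand setting given for the counting, reads in that stretch cannot be assigned to either gene with certainty. DGAT1 itself had 441 to 638 counts per library.

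HSPA1A and HSPA1B, the inducible HSP70 genes, stood out in 1 library, EBF2-OE 3. HSPA1A (chromosome 6, 31815543 to 31817942, + strand) had 2125 and 2292 counts in the Vector libraries, 2152 and 4615 with EBF2-OE, 3156 and 3453 under Vehicle and 2889 and 2869 under GSK-LSD1. Its CPM of 206 in EBF2-OE 3 was 1.63 times that of the next highest library, Vehicle 1. HSPA1B (chromosome 6, 31827738 to 31830254, + strand) had 2055 and 1864 counts in the Vector libraries, 1872 and 4418 with EBF2-OE, 2843 and 2917 under Vehicle and 2580 and 2567 under GSK-LSD1. Its CPM of 198 in EBF2-OE 3 was 1.73 times the next highest, also Vehicle 1. EBF2-OE 2 lay with the Vector libraries for both genes. For HSPA1A it was above both of them, at 107 CPM against 100.5 and 98.1. For HSPA1B its 93.0 CPM fell between their 97.2 and 79.8.

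The 2 genes are hard to separate by reads. Their coding sequences have 1923 nt each and match at 1919 positions, and 69.6% of the 150-base stretches of the HSPA1A transcript also occur in HSPA1B (66.1% the other way). The split of their counts is therefore uncertain, and their sum is the firmer value. HSPA1A took 50.8% to 55.1% of the summed counts in the 8 libraries. The summed level was 188 to 254 TPM in the other 7 libraries and 430 TPM in EBF2-OE 3.

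HSPA6 (chromosome 1, 161524540 to 161526894, + strand), the strictly inducible HSP70, showed the widest gap. It had 8 and 12 counts in the Vector libraries, 5 and 144 with EBF2-OE, 4 and 8 under Vehicle and 9 and 8 under GSK-LSD1. The 144 counts of EBF2-OE 3 correspond to 6.44 CPM, 12.5 times the next highest library, Vector 3. The other 7 libraries held 4 to 12 counts, at the edge of detection. HSPA7, a closely related pseudogene that shares 15.3% of the 150-base stretches of HSPA6, had 3 counts in EBF2-OE 3 and 0 in the other libraries. Even in EBF2-OE 3, HSPA6 at 7.14 TPM was 1.66% of the HSPA1A and HSPA1B sum.

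DNAJB1 (chromosome 19, 14514769 to 14530597, - strand), the J protein that works with inducible HSP70, was also highest in EBF2-OE 3. Vector held 2951 and 3048 counts, EBF2-OE 2490 and 4891, Vehicle 3503 and 3838 and GSK-LSD1 3223 and 3111. EBF2-OE 3 reached 219 CPM, 1.56 times the next highest library, while EBF2-OE 2 was the lowest of all at 124 CPM. TECR overlaps DNAJB1 on the opposite strand over 2846 bases of the genome, with exons and introns not separated. That stretch holds start 1 of DNAJB1 (14529271) but not start 2 (14518397) or start 3 (14517937). The TECR level in EBF2-OE 3 was 1.03 times that of Vector 3, against 1.68 times for DNAJB1.

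The partners and relatives of these genes were less uniform. HSPH1 (chromosome 13, 31134973 to 31162388, - strand), an HSP110 exchange factor, had 3558 and 3677 counts in the Vector libraries, 3091 and 3833 with EBF2-OE, 3555 and 3646 under Vehicle and 3414 and 3279 under GSK-LSD1. It was highest in EBF2-OE 3, at 171 CPM, by only 1.02 times over Vector 2. In TPM its order was the reverse, with 80.4 in Vector 2 and 78.6 in EBF2-OE 3. BAG3 (chromosome 10, 119651380 to 119677819, + strand), which links HSP70 to selective autophagy, had 1178 and 1063 counts in the Vector libraries, 1042 and 1472 with EBF2-OE, 1110 and 1073 under Vehicle and 1020 and 1012 under GSK-LSD1. It too was highest in EBF2-OE 3, at 65.8 CPM, 1.18 times Vector 2. HSPB1 (chromosome 7, 76302673 to 76304292, + strand), the small heat shock protein HSP27, had 4716 and 4582 counts in the Vector libraries, 4279 and 6141 with EBF2-OE, 11808 and 9021 under Vehicle and 7693 and 7747 under GSK-LSD1. Here EBF2-OE 3 was the highest of the 4 plasmid libraries but below all 4 libraries of the inhibitor experiment.

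HSPA8 (chromosome 11, 123057489 to 123062366, - strand), the constitutive HSP70, went the other way in EBF2-OE 3. It had 25039 and 29058 counts in the Vector libraries, 25780 and 24384 with EBF2-OE, 21266 and 24472 under Vehicle and 20586 and 19357 under GSK-LSD1. At 1090.1 CPM, EBF2-OE 3 was the lowest of the plasmid libraries, which otherwise held 1184 to 1280.4 CPM, and all 4 were above the 850.4 to 893 CPM of the inhibitor experiment. HSPA1L (chromosome 6, 31809619 to 31815283, - strand), an HSP70 known mainly from testis, was low, with 60 and 32 counts in the Vector libraries, 84 and 74 with EBF2-OE, 88 and 110 under Vehicle and 80 and 85 under GSK-LSD1. The 2 Vector libraries were the lowest of the 8, and it was highest in EBF2-OE 2 rather than in EBF2-OE 3.

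Compared per length over all 8 libraries, HSPA8 (median 1138 TPM, range 966 to 1467) and HSPB1 (1004, 654 to 1581) were the most abundant of the 10, and their ranges overlapped. HSPA1A (134 TPM), HSF1 (117), HSPA1B (112), DNAJB1 (88.1), HSPH1 (68.1) and BAG3 (45.6) followed, each with a range that overlapped that of its neighbour. HSPA1L (3.24 TPM) and HSPA6 (0.403) were far below. The balance between constitutive and inducible HSP70 differed between libraries. The TPM ratio of HSPA8 to the HSPA1A and HSPA1B sum was 6.44 and 7.50 in the Vector libraries, 6.88 and 2.90 with EBF2-OE, 3.81 and 4.12 under Vehicle and 4.04 and 3.83 under GSK-LSD1. EBF2-OE 3 had the lowest ratio, and the other 3 plasmid libraries had the highest.

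Each EBF2-OE library was then set against the Vector library of the same number. The labels do not say what the numbers mark, and each ratio compares 2 libraries, not 2 conditions. Its 95% interval (exact binomial) covers counting error only. In EBF2-OE 3 over Vector 3, HSPA6 was at 12.5 (6.96 to 24.8), HSPA1B at 2.47 (2.34 to 2.61), HSPA1L at 2.41 (1.57 to 3.78), HSPA1A at 2.10 (1.999 to 2.21) and DNAJB1 at 1.68 (1.60 to 1.75). BAG3 at 1.45 (1.34 to 1.57) and HSPB1 at 1.40 (1.35 to 1.45) stayed under 1.5. HSF1 was at 1.21, HSPH1 at 1.09 and HSPA8 at 0.876. In EBF2-OE 2 over Vector 2, none of the 10 was past 1.5 and HSPA6 alone was below the inverse limit, at 0.657 (0.169 to 2.28) on 5 against 8 counts. HSPA1L was at 1.47 (1.04 to 2.08), HSPA1A at 1.06 (1.00 to 1.13), HSPA1B at 0.957 (0.898 to 1.02) and DNAJB1 at 0.886 (0.840 to 0.935). HSPA1A and HSPA1L lay above 1 in both pairs, and each of the other 8 members lay on opposite sides of 1.

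In counts, 5 of 10 members were past 1.5-fold higher in EBF2-OE 3 over Vector 3 and 0 lower, where 9.28% of the 15560 genes tested were higher and 3.07% lower. In EBF2-OE 2 over Vector 2 the members gave 0 higher and 1 lower, where 4.06% of genes were higher and 7.05% lower. The members' median log2 ratio was 0.64 in the pair numbered 3 and -0.09 in the pair numbered 2, against -0.03 and 0.02 over all genes tested. With Vector 2 as the reference for EBF2-OE 3, the members past the limit were HSPA1A, HSPA1B, HSPA6 and DNAJB1. HSPA1L dropped out, at 1.17 (0.819 to 1.67), its count being 32 in Vector 3 and 60 in Vector 2. Over all 8 libraries, 6 of the 10 members had their highest CPM in EBF2-OE 3, as did 11.4% of genes tested. In 4 of them (HSPA1A, HSPA1B, HSPA6 and DNAJB1) it exceeded the next library by over 1.5-fold, as in 1.05% of genes. Both EBF2-OE libraries lay above both Vector libraries for 2 members (HSPA1A and HSPA1L), as for 11% of genes, and below them for 0, as for 11.4%. These shares describe libraries by which the members were chosen, and nothing is read from them.

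In the fit over the 4 plasmid libraries all 10 members were among the genes tested, HSPA6 only through the counts of EBF2-OE 3 and Vector 3. The log2 fold change of EBF2-OE against Vector was 2.91 (SE 1.29) for HSPA6, 0.84 (SE 0.43) for HSPA1L, 0.72 (SE 0.35) for HSPA1B, 0.67 (SE 0.30) for HSPA1A and 0.35 (SE 0.27) for DNAJB1. HSPB1 and BAG3 were at 0.22 each, HSF1 at 0.02, HSPH1 at 0.00 and HSPA8 at -0.03. The median over the members was 0.29, against 0.00 over all genes tested. By edgeR with a 1.5-fold limit and an adjusted p under 0.05, 0 members were called, and 0% of genes in either direction, and nothing is read from the members' count in this comparison. Under that fold limit and an unadjusted p under 0.05, edgeR counted 114 genes higher and 34 lower. DESeq2 called 6 and 1 at an adjusted p under 0.05. When EBF2-OE 3 was left out, HSPA1A gave 0.11, HSPA1B 0.07, HSPA6 -0.83 and DNAJB1 -0.13. HSPA1L gave 1.47 without Vector 2 and 0.39 without Vector 3.

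Among 99 further chaperone, co-chaperone and heat-inducible genes, some of them mitochondrial, 86 were tested. Of these 0 were called in either direction, as of all 15560 genes tested. In EBF2-OE 3 over Vector 3 the median log2 ratio of the 86 was -0.06. Past 1.5-fold, 2 of the 86 were higher and 1 lower, where 9.28% of all genes tested were higher and 3.07% lower. These were the small heat shock protein HSPB7 (1.84-fold), DEDD2 (1.75-fold) and CHAC1, a glutathione-degrading enzyme (0.544-fold), of which DEDD2 was named after its values were seen. HSPB7 had 2582 and 2947 counts in the Vector libraries, 2880 and 5205 with EBF2-OE, 4143 and 4631 under Vehicle and 4134 and 3838 under GSK-LSD1. It was highest in EBF2-OE 3, at 233 CPM, with GSK-LSD1 1 next at 179 CPM. This gap was under 1.5-fold, unlike that of the inducible HSP70 genes.

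HSP90AA1, the stress-inducible HSP90, was at 0.884 in EBF2-OE 3 over Vector 3 and at 1.14 in EBF2-OE 2 over Vector 2. Its constitutive relative HSP90AB1 was at 0.869 and 1.18. None of the 19 HSP90 proteins and co-chaperones was past 1.5-fold in either pair, with a median log2 ratio of -0.15 in the pair numbered 3 and 0.10 in the pair numbered 2. The mitochondrial chaperonin genes HSPD1 and HSPE1 were at 0.879 and 0.895 in the pair numbered 3, and the median log2 ratio of the 10 chaperonin genes with a value was -0.16, against 0.14 in the pair numbered 2. In the pair numbered 3, DNAJA1, another cytosolic J protein, was at 0.964 and the exchange factor HSPA4 at 0.975. The ER HSP70 gene HSPA5 was at 1.10. The 11 ER chaperones gave a median log2 ratio of -0.01 there and the 31 proteasome subunits -0.07, with 0 past the limit, against 0.04 and 0.16 in the pair numbered 2.

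Of 15 immediate early genes, which many stimuli switch on within minutes, 8 were higher in library 3 than in library 2 of both Vector and EBF2-OE, 3 (MYC, IER3 and JUNB) were lower in both, and 4 differed between the groups. Those 3 were named after their values were seen. FOSB had 169 and 5227 counts in Vector and 130 and 6360 in EBF2-OE. ATF3, a stress-induced transcription factor, had 1285 and 4001 in Vector and 655 and 4573 in EBF2-OE. Vector 3 was high in FOSB and ATF3 but the lowest of the 8 libraries in JUNB (44.9 CPM) and MYC (191 CPM). Its HSPA1A, HSPA1B, HSPA1L and HSPB1 levels were the lowest of the 8 libraries. For HSPA6 (0.514 CPM) and HSPA8 (1244 CPM) it was the next to highest library. The 15 immediate early genes summed to 1364 and 1579 CPM in the Vector libraries, 1008 and 1807 with EBF2-OE, 1287 and 1149 under Vehicle and 961 and 1015 under GSK-LSD1. Of the 14 tested, 4 were past 1.5-fold higher and 1 lower in EBF2-OE 3 over Vector 3. There 9.28% of all genes tested were higher and 3.07% lower. In EBF2-OE 2 over Vector 2, 0 were higher and 6 lower, where 4.06% of all genes tested were higher and 7.05% lower. EBF2 itself was 289 CPM in EBF2-OE 2 and 4028 in EBF2-OE 3. The part of the transgene level and of the immediate early state in the heat shock gene values was not tested.

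The genes whose levels followed the members most closely were sought over all 8 libraries, by the correlation of log2(CPM + 1) with the members' mean profile. The first 5 of 16548 genes were ACTN3 (Pearson's r = 0.97), TMEM51-AS1 (0.97), CALML6 (0.96), CORO1A (0.96) and ADAM8 (0.96). CALML6, a calmodulin-like gene, had 122 counts in EBF2-OE 3 and 11 to 24 in the others. CORO1A, an actin-binding coronin, had 130 against 18 to 40. ACTN3 and TMEM51-AS1 reached 30 and 24 counts in EBF2-OE 3 and at most 11 elsewhere. All 5 had their highest count there, and the correlation describes chiefly that single library.

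GSK-LSD1 against Vehicle compares the members' levels in cells given the KDM1A inhibitor with those in vehicle-treated cells. None of the 9 members tested was called by edgeR or DESeq2, and at an unadjusted p under 0.05 only HSF1 passed, within 1.5-fold. Of the 16059 genes tested, 2.53% were called higher and 2.04% lower by edgeR. HSPA6 had too few counts for a test. HSPA1A stood at 126 and 125 CPM in Vehicle and at 125 and 126 in GSK-LSD1, a log2 fold change of 0.00 with a 95% interval of -0.11 to 0.10 (adjusted p = 0.978). HSPA1B gave 0.03 (-0.09 to 0.15, adjusted p = 0.737), HSPA8 0.00 (-0.10 to 0.10, adjusted p = 0.978) and DNAJB1 -0.02 (-0.12 to 0.09, adjusted p = 0.852). Their intervals end short of a 1.5-fold change on either side. HSPH1 at 0.09 (adjusted p = 0.290), BAG3 at 0.09 (adjusted p = 0.462) and HSPA1L at -0.06 (adjusted p = 0.836) did not pass either. HSF1 was lower in both GSK-LSD1 libraries, at -0.17 (-0.32 to -0.01, adjusted p = 0.122). HSPB1 was at -0.25 (-0.52 to 0.03, adjusted p = 0.194), and without Vehicle 1, its highest library, at 0.04 (adjusted p = 0.754). Without Vehicle 2, HSPB1 was at -0.49 (adjusted p = 1.82e-10) and HSF1 at -0.25 (adjusted p = 0.00155), both within 1.5-fold, in fits that take the lone Vehicle library to vary like the GSK-LSD1 libraries. The median over the 9 members was 0.00, against -0.01 over all genes tested.

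Of 89 other network genes tested, 1 was called higher and 0 lower, where 2.53% of all genes tested were higher and 2.04% lower. The gene called was HSPA4L, an HSP110 relative of HSPH1. Its counts were 752 and 799 under Vehicle against 1029 and 1006 under GSK-LSD1 (log2 fold change 0.59, SE 0.07, adjusted p = 2.75e-04). Of the 11 ER chaperones, HSPA5 (the ER HSP70 BiP) and CALR (calreticulin) rose, by 0.59 (adjusted p = 1.12e-05) and 0.60 (adjusted p = 8.29e-06), and the list's median was 0.41. HSPA4L, HSPA5 and CALR lie just past the 1.5-fold limit. Other network genes passed the adjusted p but stayed within that limit, such as HSPB8 at 0.51 (adjusted p = 0.00171) and HSPA2 at 0.48 (adjusted p = 0.00298). Lower ones were HSP90AB1 at -0.12 (adjusted p = 0.0464) and DDIT4 at -0.13 (adjusted p = 0.0458). None of the HSP90, J protein, chaperonin or proteasome genes was called in this comparison.

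Vector against Vehicle compares the controls of the 2 experiments, where the empty vector, the experiment and any batch between them cannot be told apart. It shares its Vector libraries with EBF2-OE against Vector and its Vehicle libraries with GSK-LSD1 against Vehicle. Of 9 members tested, 1 was called lower and 0 higher, where 5.79% of the 16019 genes tested were higher and 10.2% lower. HSPB1 fell, from 473 and 326 CPM in Vehicle to 223 and 196 in Vector, a log2 fold change of -0.93 (SE 0.18, adjusted p = 0.0215). Without Vehicle 1 it was -0.65 and no longer called (adjusted p = 0.112). HSPA8 was higher in Vector, at 0.48 (adjusted p = 0.0108), and HSPA1A lower, at -0.34 (adjusted p = 0.0257), both within 1.5-fold. HSPA1L was at -0.84 (SE 0.37, adjusted p = 0.142), and without Vector 2 it passed, at -1.46 (adjusted p = 0.00272), while without Vector 3 it was -0.40. HSPA1B at -0.31 (adjusted p = 0.106), HSPH1 at 0.24 (adjusted p = 0.0793), BAG3 at 0.28 (adjusted p = 0.182), HSF1 at -0.12 (adjusted p = 0.413) and DNAJB1 at -0.05 (adjusted p = 0.645) did not pass.

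Of 88 other network genes tested between the controls, 18 were higher in Vector and 3 lower, with a median log2 fold change of 0.28. Of all 16019 genes tested, 5.79% were higher and 10.2% lower, with a median of 0.00. HSP90AA1 rose by 0.92 (adjusted p = 0.00577) and HSPD1 by 0.65 (adjusted p = 0.00810). Among the 19 HSP90 genes 5 were higher and 0 lower. Among the 11 chaperonins 5 were higher and 1 lower, CCT6B at -1.81 on low counts. HSPA2, an HSP70 known from testis, fell by 1.16 (adjusted p = 0.00869). Among 9 heat shock factors and HSF1 regulators tested, SIRT1, a deacetylase of HSF1, rose by 0.60 (adjusted p = 0.0237), and HSF4, a relative of HSF1 known from the lens, fell by 0.61 (adjusted p = 0.0289). Of all genes, 2558 were called between the controls, 12 without Vehicle 1, 235 without Vehicle 2 and 4259 without Vector 2.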

How the data were processed

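RNA-seq of 8 SW1990 libraries was analysed. Per the labels, the authors sequenced poly(A)-selected RNA with paired ends of 150 bases, aligned reads to hg38 with HISAT2 and counted them per gene with HTSeq. Tool versions, annotation and strand setting were not given in the sources used here. The deposited table holds raw counts and TPM for 38637 genes, and the TPM was checked to follow from the count and the listed gene length.

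The tests on the deposited counts used the quasi-likelihood method of edgeR 4.0.16 under R 4.3.3 (TMM, filterByExpr with a minimum count of 10), each comparison on its own 4 libraries, two-sided, with Benjamini-Hochberg adjustment over all genes tested. Genes were called at a fold change above 1.5 and an adjusted p under 0.05. Printed CPM uses TMM over all 8 libraries. Alternatives were DESeq2 1.42.0, its size factors in edgeR, no filter, 1 fit over 8 libraries, the replicate number as a block, the sum of HSPA1A and HSPA1B, and leaving out each library. Other scalings and reference libraries for the library ratios were added after seeing the data. The edgeR and DESeq2 calls were tested on simulated counts, while the library ratios, motif search and profile correlation were not.

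The members and gene lists were chosen with earlier results of these data known. The text names all members, of each list some genes with the highest mean TPM or called outside EBF2-OE against Vector, and the 5 genes closest in profile. Where it says so, genes were named after their values were seen. Promoters came from RefSeq.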

Additional observations from a re-analysis of the deposited data

How the results depend on the processing

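The number of members past 1.5-fold in EBF2-OE 3 over Vector 3 was 5 with TMM, total counts or the size factors of DESeq2, and 4 with Vector 2 as the reference. In EBF2-OE 2 it was 0, and 1 (HSPA1L) over Vector 3. In EBF2-OE against Vector, 0 genes were called in all, against 7 by DESeq2, 74 without the count filter, 2 in the fit over 8 libraries and 1 to 3 when a library was left out. Members counted among the calls were 3 without the filter (HSPA1A, HSPA1B and HSPA6) and 0 under the other settings, with nothing read from these counts since the members were chosen on this comparison. With the replicate number as a block, 5 genes and 0 members were called in that comparison, and 763 genes and 0 members in GSK-LSD1 against Vehicle. Deviations of same-numbered libraries correlated at 0.34 and -0.04, and with 2 pairs a number is only a hint. Vector and Vehicle share only number 2, so no block could be fitted. In GSK-LSD1 against Vehicle, 734 genes were called, 467 by DESeq2, 100 in the fit over 8 libraries and 439 to 1007 without 1 library, with 0 members under all settings. Signs near 0 changed there: HSPA1A was at 0.00082 in the fit over 8 libraries and 0.0135 as the sum with HSPA1B. Without 1 library HSPA1A ran from -0.0121 to 0.00734, HSPA8 from -0.0295 to 0.0389, HSPB1 from -0.493 to 0.0450, HSPA1B from -0.0233 to 0.0889, HSPA1L from -0.145 to 0.0273, BAG3 from -0.00725 to 0.191 and DNAJB1 from -0.0293 to 0.00137. Between the controls, 12 to 4259 genes and 0 to 2 members lower were called without 1 library, 2 (HSPA1L and HSPB1) without the filter, and DNAJB1 ran from -0.104 to 0.00846. A group left with 1 library is assumed to vary like the other. The cause of these shifts was not tested. With 4 to 12 counts outside EBF2-OE 3, HSPA6 is limited by depth.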
